A study of Mus musculus with 2 samples.

Results

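The genes described here are 29 genes of DNA replication and of the step from G1 into S phase, out of 31053 features counted in single cells from MC38 tumours. They were chosen by name, and each symbol was found once in both libraries. MC38 is a mouse colon carcinoma line. In the study, C57BL/6 mice carried MC38 tumours injected in the right flank, and treatment started 5 days later, at a mean tumour size of 100 mm3. One group of 6 mice received SHP099, an allosteric inhibitor of the tyrosine phosphatase SHP2 (gene Ptpn11), into the stomach at 5 mg/kg every day for 14 days, and the other 6 received PBS, although its label reads "Untreated". Tumours were dissociated, no cell sort is described, and 1 10x Genomics 3′ library stands for each group. The sources used here do not say how many tumours were pooled for a library. With 1 library per group no test between groups was possible, and every interval below is a 95% interval that covers counting error only. A difference between the treatments and a difference between the tumours or libraries cannot be told apart.

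Before S phase, the origin recognition complex, Cdc6 and Cdt1 load the Mcm2 to Mcm7 helicase onto DNA, a step called licensing. Cdc45 and the GINS complex then switch the helicase on, primase and the polymerases start copying, Pcna holds the machinery to the template, and ribonucleotide reductase and thymidylate synthase supply the nucleotides. Most of these genes are switched on together late in G1 by E2F transcription factors once the retinoblastoma proteins are phosphorylated, so their transcripts are widely used to mark cells that are entering or passing through S phase.

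Promoter sequences are shown because joint control by E2F is what these genes are known for. The RefSeq promoter table (GRCm38.p6, 250 bases before to 50 bases after a transcription start) matched 24 of the 29 genes and had no entry for Mcm4, Gins2, Rfc2, Ccne2 and Tipin. The letters TTTGGCGC, TTTCCCGC, TTTGGCGG and TTTCCCGG, which are forms of the E2F site, were searched on both strands. At least 1 of them lay in the window of 10 of 24 genes (41.7%), against 3.79% of all 26994 genes in the table. TTTGGCGC alone was in 6 of the 24 (25.0%), against 0.585% of all genes. The CCAAT box, searched as CCAAT on both strands, was in 16 of the 24 (66.7%), against 41.0% of all genes. Of the 5 windows below, those of Mcm6 and Dtl hold 2 matches each, Hells had the highest and Cdt1 the lowest ratio between the libraries in phagocytes, and Rrm2 holds none of the 4 E2F forms. Capitals mark the matches, and each sequence runs 5′ to 3′ along the gene's own strand, at chr1:128359656-128359955 (minus strand) for Mcm6, chr1:191575495-191575794 (minus) for Dtl, chr19:38930740-38931039 (plus) for Hells, chr8:122567765-122568064 (plus) for Cdt1 and chr12:24708004-24708303 (plus) for Rrm2.
Mcm6: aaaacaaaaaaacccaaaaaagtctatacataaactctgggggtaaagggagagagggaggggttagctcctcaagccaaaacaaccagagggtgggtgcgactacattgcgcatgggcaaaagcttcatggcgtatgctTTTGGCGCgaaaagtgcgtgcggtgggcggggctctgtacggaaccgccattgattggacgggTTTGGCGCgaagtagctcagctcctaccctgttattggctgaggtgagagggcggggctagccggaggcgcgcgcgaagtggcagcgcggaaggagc
Dtl: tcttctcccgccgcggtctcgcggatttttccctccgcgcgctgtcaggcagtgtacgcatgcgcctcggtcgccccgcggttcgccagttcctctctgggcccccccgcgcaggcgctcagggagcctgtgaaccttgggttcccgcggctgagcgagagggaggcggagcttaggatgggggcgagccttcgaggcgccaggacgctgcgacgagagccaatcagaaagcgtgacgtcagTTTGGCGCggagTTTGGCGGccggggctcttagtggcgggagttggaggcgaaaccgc
Hells: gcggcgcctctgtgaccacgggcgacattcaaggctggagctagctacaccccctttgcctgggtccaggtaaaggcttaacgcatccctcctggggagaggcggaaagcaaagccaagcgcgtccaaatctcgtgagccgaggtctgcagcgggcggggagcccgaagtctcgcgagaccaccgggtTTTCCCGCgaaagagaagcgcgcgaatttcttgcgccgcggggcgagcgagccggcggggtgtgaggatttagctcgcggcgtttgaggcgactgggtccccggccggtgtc
Cdt1: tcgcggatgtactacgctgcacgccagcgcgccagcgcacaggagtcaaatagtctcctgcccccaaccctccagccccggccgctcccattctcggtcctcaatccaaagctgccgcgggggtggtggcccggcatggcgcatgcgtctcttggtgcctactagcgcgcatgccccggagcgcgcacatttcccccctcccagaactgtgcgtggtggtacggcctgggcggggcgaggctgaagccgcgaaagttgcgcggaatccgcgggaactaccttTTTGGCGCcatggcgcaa
Rrm2: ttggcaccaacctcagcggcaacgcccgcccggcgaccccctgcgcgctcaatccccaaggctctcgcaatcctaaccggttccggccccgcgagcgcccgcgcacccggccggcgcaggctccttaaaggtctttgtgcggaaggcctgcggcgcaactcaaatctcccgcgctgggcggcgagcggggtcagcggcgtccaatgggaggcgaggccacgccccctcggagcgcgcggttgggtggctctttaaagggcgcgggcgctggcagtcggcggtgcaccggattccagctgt
With the start as position 0, the Mcm6 matches begin at positions -110 and -47, the Dtl matches at -8 and 4, the Hells match at -62 and the Cdt1 match at 32, past the start. A match is a stretch of letters, and binding was not measured here. In the GENCODE annotation of GRCm38 the 29 genes lie on 15 chromosomes, 5 of them on chromosome 5. Genes on the same strand overlap 6 of them, such as the read-through model Gm20388 with Cdt1, so UMIs there could be split, and the feature set also holds a Pcna pseudogene, Pcna-ps2.

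After filtering, the control library held 7688 cells and the SHP099 library 7702, with median depths of 9162 and 10751.5 unique molecular identifiers (UMIs, 1 per captured RNA molecule) per cell. Of the barcodes, 100 occurred in both libraries, 1.21% of each. Cell classes were set by marker genes. The largest class, 4187 control and 4295 SHP099 cells, was found by its lack of Xist, the RNA made from the inactive X chromosome, and of the leukocyte gene Ptprc. Its Xist level was 2.71 and 2.97 counts per 1e6 UMIs (CPM), against at least 862 CPM in every other class described here. They are called Xist-negative cells below. They carried the listed MC38 gene Hmga2 at 108 and 82.2 CPM, but the epithelial genes Krt8 at 0.115 CPM, Krt18 at 0.0384 CPM and Epcam at 0 in control, and some of their clusters were led by matrix genes such as Dcn and Ogn. Phagocytes (2661 and 2760 cells), T cells (520 and 398), NK cells (98 and 54), dendritic cells (86 and 83), fibroblasts (80 and 50) and endothelial cells (30 and 46) were named from their own markers. The target gene of the drug, Ptpn11, was at 53.8 and 55.5 CPM in Xist-negative cells and at 27.0 and 27.7 CPM in phagocytes. UMIs at the 3′ end are not scaled by gene length, so levels are compared here within a gene or over the same list.

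The summed level of the 29 members differed between cell classes, and its order was not the same in the 2 libraries. In the control library T cells were highest at 1326 CPM (1270 to 1385). Xist-negative cells followed at 961 CPM (955 to 967), endothelial cells at 953 CPM (856 to 1058) and NK cells at 873 CPM (780 to 975), and the intervals of these 3 overlapped. Phagocytes, at 581 CPM (567 to 594), and dendritic cells, at 571 CPM (494 to 656), also overlapped, and fibroblasts were lowest at 377 CPM (331 to 429).

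In the SHP099 library T cells, at 1508 CPM (1435 to 1584), and NK cells, at 1473 CPM (1313 to 1648), overlapped at the top. Xist-negative cells were at 841 CPM (835 to 847) and phagocytes at 782 CPM (767 to 798), so the gap between them was narrower than in control. Dendritic cells were at 714 CPM (639 to 796). Endothelial cells, at 359 CPM (301 to 424), and fibroblasts, at 328 CPM (278 to 384), overlapped at the bottom.

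**Figure D1:**
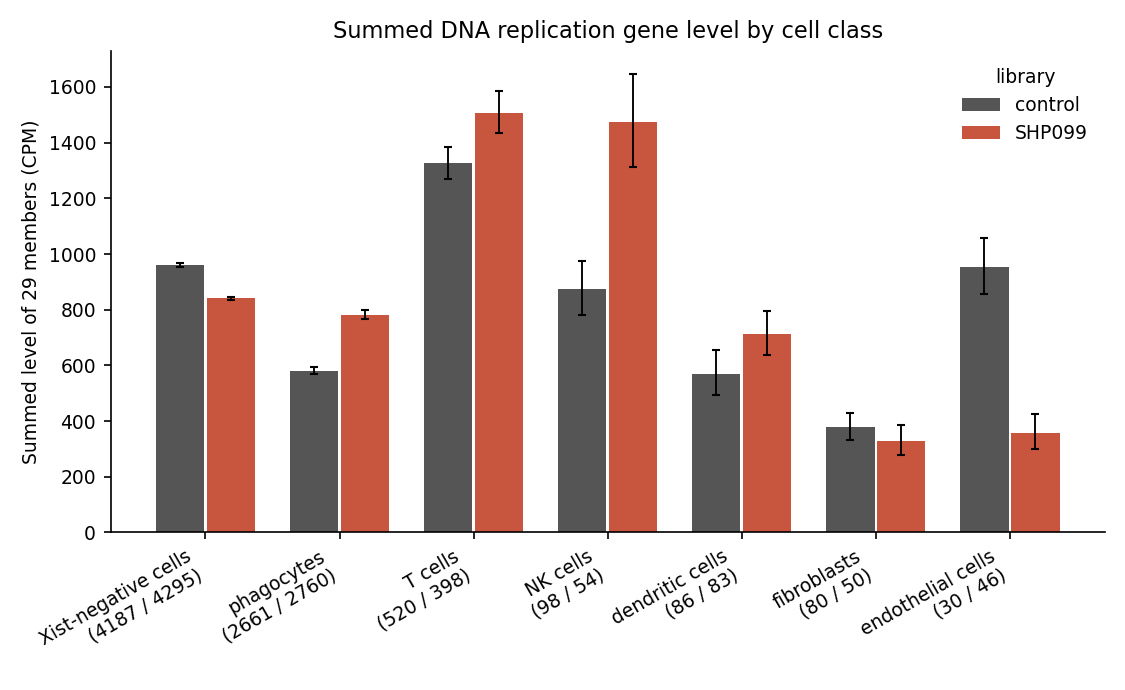
Summed level of the 29 DNA replication genes (CPM) in each cell class, with the number of cells in control / SHP099 under each name; error bars are exact Poisson 95% intervals. Phagocytes stood at 581 and 782 CPM, and Xist-negative cells at 961 and 841 CPM.

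Per gene, T cells were above Xist-negative cells and phagocytes for most members. Among all classes they were highest for 13 members in control and 9 in SHP099, where NK cells, on few cells, were highest for 17. In control 18 of 29 members were at a higher level in T cells than in Xist-negative cells, and 25 of 29 in SHP099. The median of this ratio over the 29 members was 1.22 in control and 1.55 in SHP099. Against phagocytes, T cells were higher for 28 and 29 of the 29. The largest ratio of T cells over Xist-negative cells was that of Rpa2, a subunit of the single-strand DNA binding complex RPA. It was at 107 and 99.6 CPM in T cells against 19.01 and 16.4 CPM in Xist-negative cells. Slbp, which binds the stem-loop of histone mRNAs, was at 199 and 234 CPM in T cells against 48.9 and 49.2 CPM. A sum gives most weight to the most counted genes, so the class order of the summed level leans in part on such members. Some members had the reverse order. E2f1, the transcription factor that drives S phase genes, was at 42.4 and 34.3 CPM in Xist-negative cells against 22.0 and 24.4 CPM in T cells, and Cdc45, part of the active helicase, was at 13.9 and 12.6 CPM against 4.53 and 6.58 CPM. Phagocytes were above Xist-negative cells for 2 members in control, Pcna and Slbp, and for 13 in SHP099. These levels are shares of a cell's UMIs. Median depth was 2396 and 2036 UMIs in T cells, against 24301 and 20152 in Xist-negative cells. With each cell reduced at random to 2000 UMIs, 18.5% and 28.2% of T cells held 3 or more of 30 mitosis genes. In Xist-negative cells that share was 35.1% and 26.1%, so the class order in control was the reverse of that of the members.

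Genes of the Xist-negative cells were found at a low level in phagocytes and T cells, each class taken whole. Hmga2 and Igf2bp2, which mark the Xist-negative cells, were together found in phagocytes at 7.14% of their Xist-negative level in control and 7.86% in SHP099. The members stood in phagocytes at 60.4% and 93.0% of their Xist-negative level. In T cells the 2 marker genes stood at 4.08% and 6.51%, and the members at 138% and 179%. One phagocyte sub-cluster, P7, of 47 and 50 cells, carried the 2 marker genes at 64.1% and 67.2%. Another, P4, of 19 and 17 cells, had T cell genes such as Trac and Cd3d among its leading genes. A T cell sub-cluster, T3, of 8 and 4 cells, was led by class II genes such as H2-Aa. All 3 were kept in their classes. Without P4 and P7 the log2 ratio of the phagocyte member sum, SHP099 over control, was 0.48.

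In phagocytes most members had a higher level in SHP099. Their summed member level was 581 CPM in the control and 782 CPM in the SHP099 library, for a log2 ratio of 0.43 (0.39 to 0.47). Members were measured where the control or the SHP099 library reached 10 CPM. Of these 25, 11 were at least 1.5-fold higher in SHP099 and 0 at least 1.5-fold lower. Pola1, Prim1, Clspn and Ccne2 were measured only through SHP099, where they are high, and 3 of these 4 are among the 11, so that the count is partly set by the floor. With no floor, 13 of all 29 members were at least 1.5-fold higher and 0 lower, and the median log2 ratio was 0.53. The background for the 11 of 25 is the 6864 genes that reached the 10 CPM floor, of which 4.04% passed 1.5-fold upward and 1.69% downward. No share of all genes without the floor is given here, so the 13 of 29 has no background. The median log2 ratio, computed with 0.5 CPM added to each level, was 0.53 over the members and 0.05 over all genes. The counting interval lay above 0 for 19 of the 25 and held 0 for 6. Cdc45, Cdc6, Dtl and Ung were under 10 CPM in both libraries.

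Among the licensing genes, 3 of 7 measured members passed 1.5-fold. Mcm5, a helicase subunit, was at 15.2 and 25.02 CPM in control and SHP099, with a log2 ratio of 0.70 (0.45 to 0.98), and Mcm6 at 26.1 and 39.8 CPM, 0.60 (0.41 to 0.81). Mcm4, at 14.6 and 22.2 CPM, had a ratio of 0.59 (0.33 to 0.88). The other helicase subunits were also higher in SHP099, with intervals above 0: Mcm2 by 0.50, Mcm3 by 0.34 and Mcm7 by 0.52 on the log2 scale. Cdt1, the loading factor that is destroyed in S phase, was the only measured member with a lower value in SHP099, at 19.4 and 18.3 CPM, and its interval held 0 (-0.36 to 0.17). Gins2, a GINS subunit that activates the helicase, was at 16.4 and 24.2 CPM, 0.55 (0.31 to 0.83).

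The genes of nucleotide supply differed most as a group. Rrm2, the small subunit of ribonucleotide reductase, was at 21.6 and 39.0 CPM with a log2 ratio of 0.84 (0.64 to 1.07). Its large subunit Rrm1 was at 19.03 and 33.0 CPM, 0.78 (0.56 to 1.03), and Tyms, thymidylate synthase, at 11.8 and 20.7 CPM, 0.79 (0.52 to 1.11). All 3 measured genes of this group passed 1.5-fold. The group's sum, which also counts Ung, under 10 CPM in both libraries, had a log2 ratio of 0.84 (0.71 to 0.98).

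At the fork, 3 of 8 members passed 1.5-fold. They were Fen1, the flap nuclease that trims Okazaki fragments (20.6 and 32.3 CPM), Prim1, the primase (7.08 and 12.05 CPM), and Clspn, which links forks to the checkpoint kinase Chk1 (7.40 and 12.7 CPM), the last 2 measured only through SHP099. Tipin, its partner in fork protection, and Rfc2, a subunit of the clamp loader, had ratios of 0.43 and 0.44. Pcna, the sliding clamp and the most counted member in phagocytes, was nearly level at 95.7 and 103 CPM, and its interval held 0 (-0.01 to 0.21). Pcna held 1176 of the 2788 fork UMIs in control, and the log2 ratio of the group's sum was 0.35 (0.28 to 0.42), against a median of 0.49 over its 8 members.

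Hells, a chromatin remodeller of the SNF2 family needed for DNA methylation, had the highest log2 ratio of all measured members, at 14.2 and 28.6 CPM, 0.98 (0.74 to 1.28). Ccne2, a cyclin of the G1/S step that was measured only through SHP099, was at 5.53 and 11.1 CPM, 0.94 (0.57 to 1.44). Uhrf1, which recruits the maintenance DNA methyltransferase, was at 12.8 and 17.4 CPM, 0.43 (0.15 to 0.75). Slbp was at 75.5 and 80.6 CPM, E2f1 at 22.1 and 24.2 CPM and Ccne1, the other E-type cyclin, at 11.5 and 12.5 CPM, and the intervals of these 3 held 0. Rpa2, at 14.0 and 17.1 CPM, was also among the 6 members whose interval held 0, with Cdt1, Pcna, Slbp, E2f1 and Ccne1.

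**Figure D2:**
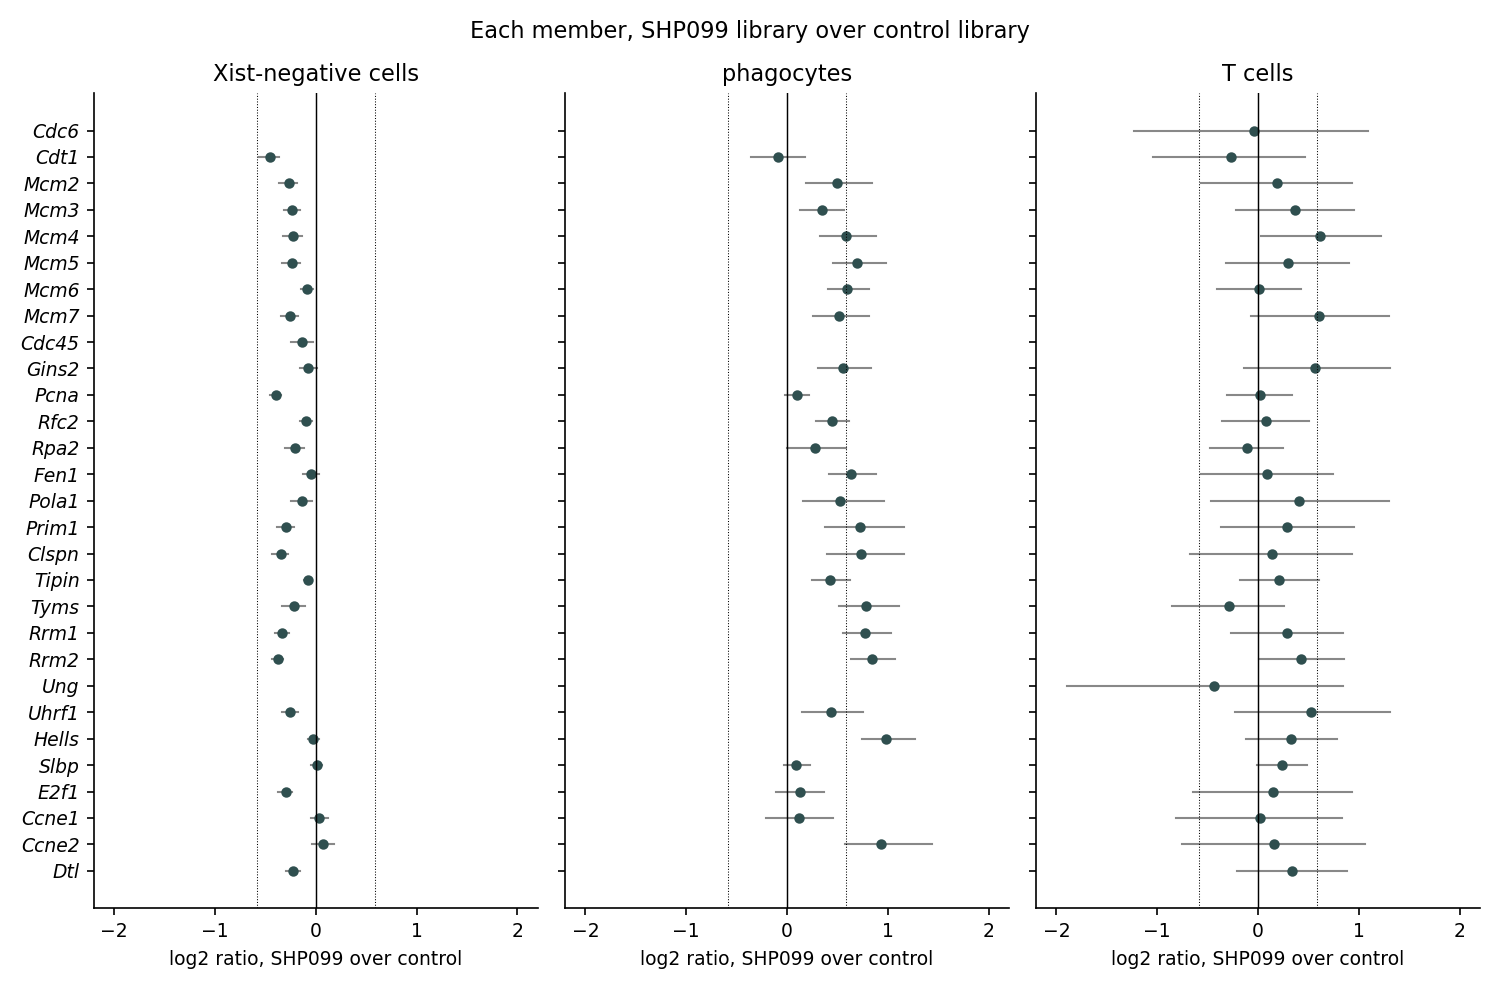
Log2 ratio of SHP099 over control (x axis) for each member (y axis, in order of role) in Xist-negative cells, phagocytes and T cells; bars are 95% counting intervals, dotted lines mark 1.5-fold, and members under 10 CPM in both libraries are left blank. Phagocyte points run from -0.09 (Cdt1) to 0.98 (Hells), and Xist-negative points from -0.45 (Cdt1) to 0.07 (Ccne2).

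The difference in phagocytes depended on the kind of phagocyte. Sub-clusters were made without the genes that follow the cell cycle, and 5 of them had over 100 cells in each library. The monocytes (P3, led by Ly6c2, Chil3 and Plac8) had the lowest member level, 332 and 308 CPM, and their interval held 0 (-0.36 to 0.15). In the other 4 the level was higher in SHP099 and the interval lay above 0. C1q- and Cx3cr1-rich macrophages (P0) were at 688 and 979 CPM, a log2 ratio of 0.51 (0.43 to 0.59). Arg1- and Mmp12-rich macrophages (P1) were at 508 and 677 CPM, 0.41 (0.32 to 0.51). Cells led by interferon-induced genes (P6) were at 627 and 856 CPM, 0.45 (0.30 to 0.60), and cells led by Il1b and class II genes (P5) at 584 and 692 CPM, 0.25 (0.15 to 0.34).

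The mix of phagocytes also differed, with P0 at 594 and 939 cells and P1 at 769 and 453. With these 5 sub-clusters weighted alike the summed log2 ratio was 0.36. The clusters of the first clustering gave a smaller value when weighted alike, 0.19 for the sum and 0.20 for the median, with 1 member at least 1.5-fold higher. One of these 4, cluster 12, had the reverse order, at 819 and 695 CPM, a log2 ratio of -0.24 (-0.41 to -0.07). It held 6.80% and 6.41% of the phagocytes, at a median of 1378.5 UMIs per cell, and carried Hmga2 at 53.6 and 44.2 CPM. Without it the phagocyte sum gave 0.48, the median 0.61, and 13 members were at least 1.5-fold higher. No share of all genes is given for that set of cells or for clusters weighted alike, so these counts have no background.

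To compare cells at 1 depth, each cell was thinned at random to 2000 UMIs, shallower cells were left out (306 control and 316 SHP099 phagocytes), and cells with UMIs of 3 or more members were counted. In 1 draw these were 190 of 2355 control phagocytes, 8.07% (7.0 to 9.24), and 383 of 2444 SHP099 phagocytes, 15.7% (14.3 to 17.2). Over 6 draws the share was 8.07% to 9.60% in control and 14.6% to 16.4% in SHP099, and the ratio of shares 1.62 to 1.94 (median 1.76). The draw with these counts of cells had the highest ratio. A range over draws shows only the random thinning of the same cells, and is not a counting interval. Without thinning the shares were 25.0% and 31.7%. In that draw, phagocytes under the limit carried a mean of 0.681 member UMIs in control and 0.678 in SHP099, and those at or over it 4.71 and 5.28. The count is a range and not a cell type: 318 and 297 cells held exactly 2 members. The means under the limit are bounded by the cut, which uses the same UMIs, so their closeness says little. Phagocytes with no UMI of the mitosis genes carried a mean of 0.833 member UMIs in control and 0.926 in SHP099. Those with 3 or more mitosis genes carried 2.65 and 3.22.

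No class in these tumours is free of dividing cells, so the monocytes served as the background. Their share over the 6 draws was 1.23% to 2.47% in control and 0.893% to 2.68% in SHP099, at median depths of 2621 and 2756 UMIs before thinning, against 4339 and 4218 in all phagocytes. The share was 10.3% to 12.8% and 19.6% to 23.3% in P0, and 6.66% to 8.02% and 13.6% to 15.7% in P1. In P5 it was 8.16% to 9.76% and 9.65% to 11.8%, and the draws of the 2 libraries overlapped. In 1 draw the ratio of shares, with its counting interval, was 2.26 (1.67 to 3.12) in P0 and 2.05 (1.38 to 3.05) in P1. It was 1.39 (0.95 to 2.05) in P5, 1.54 (0.86 to 2.94) in P6 and 0.87 (0.17 to 4.03) in the monocytes. That draw had the highest ratio of the 6 in P0 and in P5. In P1, P6 and the monocytes another draw was higher. Over the 6 draws the ratio was 1.56 to 2.26 in P0 (median 1.78), 1.76 to 2.07 in P1 (median 2.03) and 1.10 to 1.39 in P5 (median 1.23). The lowest ratio in P0 was thus under the counting interval given. The cells with 3 or more members carried Hmga2 and Igf2bp2 at 13.2 and 9.14 CPM, on 5 and 7 UMIs, against 8.31 and 8.01 CPM in the other phagocytes. Their median depth before thinning was 6127.5 and 5979 UMIs, against 4533 and 4365.

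**Figure D3:**
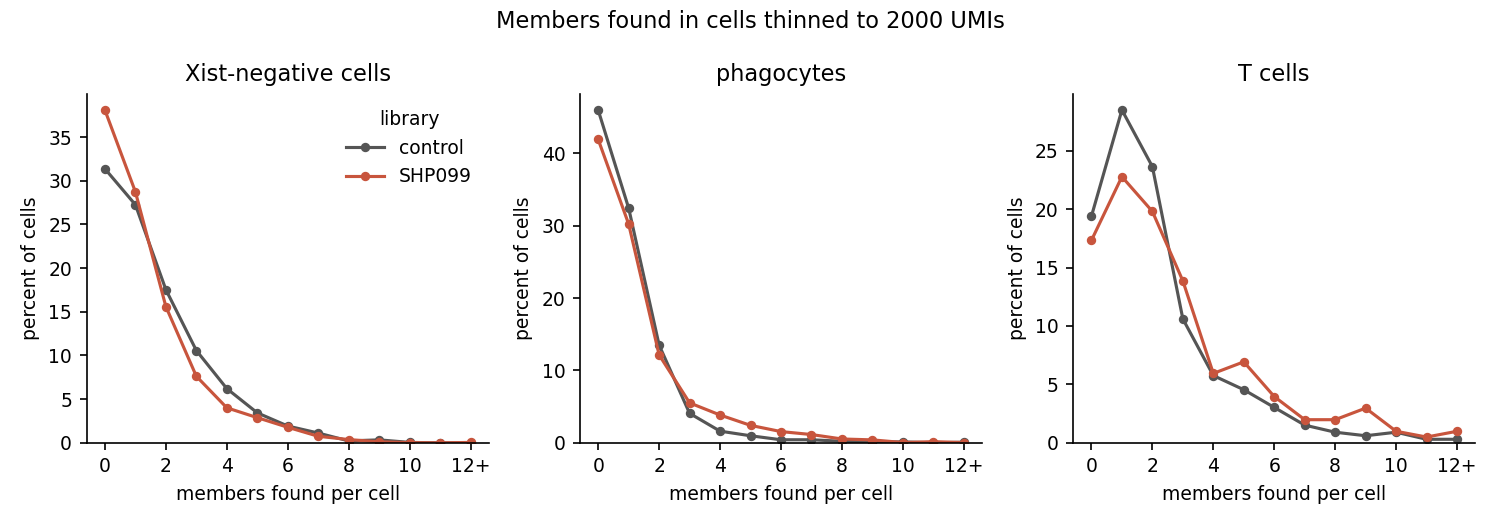
Percent of cells (y axis) by the number of members found (x axis) after thinning to 2000 UMIs, in control (grey) and SHP099 (red), in 1 draw. Phagocytes with 3 or more members were 8.07% in control and 15.7% in SHP099, and Xist-negative cells 23.9% and 17.6%. Of the 6 draws, the one shown had the highest ratio of shares in phagocytes.

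Members with a larger difference between dividing and other phagocytes tended to have a higher ratio between the libraries. Thinned phagocytes of both libraries were split by 30 genes of mitosis, none of them a member, into 443 cells with 3 or more of these genes and 2732 with none. Rrm2 was 15.2-fold (10.8 to 21.8) higher in the first, at 131 against 8.60 CPM, Rrm1 10.6-fold (7.58 to 14.8) and Ccne2 10.3-fold (5.21 to 21.0). Pcna was 2.54-fold (2.11 to 3.05) higher, E2f1 2.00-fold (1.22 to 3.18), Slbp 1.87-fold (1.49 to 2.31) and Cdt1 1.51-fold (0.90 to 2.42). Those 4 are among the 6 members whose interval between libraries held 0, and the other 2, Rpa2 and Ccne1, had folds of 3.62 and 4.66. Across the 25 measured members, Pearson's r between the log2 fold and the log2 ratio was 0.65 and Spearman's rho 0.64. Of the 443 cells 320 came from SHP099, and of the 2732 cells 1346, so a higher level in SHP099 also raises the fold. The 2 measures are therefore partly tied. Members are not independent, both measures come from the same cells, and low counts widen the fold, so this is a description. Hells had the highest ratio at a fold of 3.99, the median of the 25. The same r was -0.42 over 27 members in Xist-negative cells and 0.24 over 22 members in T cells.

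**Figure D4:**
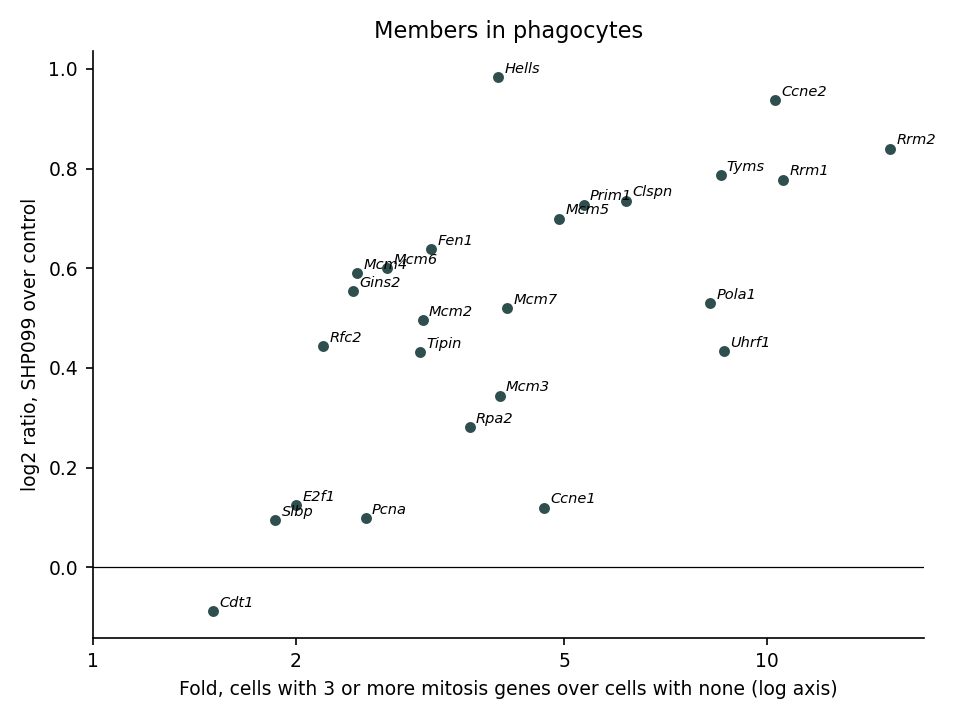
Each measured member in phagocytes: x axis, fold of its level in cells with 3 or more mitosis genes over cells with none (log axis, both libraries); y axis, log2 ratio of SHP099 over control. Rrm2 lies at 15.2 and 0.84, and Cdt1 at 1.51 and -0.09.

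The mitosis genes were also higher in SHP099 phagocytes. The summed level of all 30 was 503 and 954 CPM, a log2 ratio of 0.92 (0.88 to 0.97). Of the 25 measured ones 23 were at least 1.5-fold higher, but 14 of these were measured only through SHP099, and 9 of the 11 that reached 10 CPM in both libraries were higher. Mki67, a marker of proliferating cells, was at 12.4 and 41.2 CPM, and Top2a, the topoisomerase that untangles chromosomes, at 44.7 and 106 CPM. Thinned phagocytes with 3 or more mitosis genes were 123 of 2355 in control (5.22%) and 320 of 2444 in SHP099 (13.1%). Of 58 other replication genes 35 were measured in phagocytes, 6 were at least 1.5-fold higher and 0 lower, and their median was 0.30. The highest were Pclaf, a Pcna-binding protein, at 75.1 and 178 CPM, and Asf1b, a histone chaperone, at 12.2 and 27.9 CPM. The lowest were Donson, at 11.8 and 10.1 CPM with an interval that held 0, and Samhd1, a nuclease that degrades dNTPs, at 247 and 222 CPM.

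Of the regulators upstream, the D cyclins Ccnd1 (137 and 184 CPM) and Ccnd2 (125 and 189 CPM) were higher in SHP099 phagocytes, by 0.42 and 0.60 on the log2 scale. The list of G1 cyclins, their kinases, Myc and Cdc25a had 1 of 6 measured genes at least 1.5-fold higher and a median of 0.34. In the E2F and retinoblastoma list, which also holds the member E2f1, 2 of 8 passed 1.5-fold, Ccna2 (11.6 and 29.8 CPM) and Rbl2 (7.89 and 12.3 CPM, measured only through SHP099). The arrest list, which holds the CDK inhibitors, had 2 of 8, Cdkn2c and Btg2, and a median of 0.09, and Cdkn1a was level at 665 and 670 CPM. The share of mitochondrial UMIs was 2.25% in control and 3.17% in SHP099 phagocytes, and haemoglobin RNA 1.95 and 21.4 CPM. With cells of at most 10% mitochondrial UMIs, the log2 ratio of the members' sum was 0.43, the median 0.51 and the count of higher members 10. The part of haemoglobin RNA in these results was not tested.

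Xist-negative cells had a lower member level in SHP099. The summed level was 961 and 841 CPM, a log2 ratio of -0.19 (-0.21 to -0.18). Of 27 measured members 0 were at least 1.5-fold higher and 0 lower, against 1.12% higher and 0.227% lower among all 7034 measured genes. The median log2 ratio was -0.22 over the members and 0.02 over all genes. With 100066 and 77632 member UMIs the intervals were narrow, and 21 of 27 lay below 0, 0 above it, and 6 held it.

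Cdt1 had the lowest ratio, at 20.6 and 14.9 CPM, -0.45 (-0.56 to -0.37), and the other helicase-loading genes that were measured, Mcm2 to Mcm7, ran from -0.27 to -0.09. Pcna was at 72.6 and 55.0 CPM, -0.40 (-0.45 to -0.35). Rrm2 was at 69.5 and 53.4 CPM, -0.38 (-0.43 to -0.33), and Rrm1 at 40.5 and 32.1 CPM, -0.33 (-0.41 to -0.27), so the reductase differed in the opposite direction from the phagocytes. Clspn was at 30.3 and 23.8 CPM, -0.35 (-0.43 to -0.27), and E2f1 at 42.4 and 34.3 CPM, -0.30 (-0.37 to -0.24).

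The 6 members whose interval held 0 were Ccne1 (23.2 and 23.7 CPM), Ccne2 (13.3 and 14.0 CPM), Slbp (48.9 and 49.2 CPM), Hells (58.6 and 57.5 CPM), Fen1 (24.4 and 23.6 CPM) and Gins2 (24.6 and 23.4 CPM). Both E-type cyclins were thus level while the clamp, the reductase and the licensing genes were lower. Hells and Ccne2, at least 1.5-fold higher in SHP099 phagocytes, were 2 of these 6.

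The mix of Xist-negative clusters moved with this difference. The members were left out when the clusters were made, and their level still ran from 387 CPM in cluster 0 to 1513 CPM in cluster 6. Within the 8 clusters the log2 ratio of the sum ran from -0.24 to 0.07. The interval held 0 in 6 of them, lay above 0 in cluster 3, at 1189 and 1248 CPM, and below 0 in cluster 14, at 493 and 417 CPM. The low clusters 0, 1 and 14 held 41.6% of the Xist-negative cells in control and 60.4% in SHP099, and the high clusters 2, 3, 4 and 6 held 57.2% and 38.4%. With clusters weighted alike the log2 ratio of the sum was -0.003 and the median -0.02, and without cluster 14 the sum gave -0.12. The mitosis genes also ran from 378 CPM in cluster 0 to 3001 CPM in cluster 6, so the clusters themselves differ in cell cycle genes. Weighting them alike may thus take out part of the difference itself, which was not tested. With each cell assigned by its own marker counts the sum gave -0.05 and the median -0.05.

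**Figure D5:**
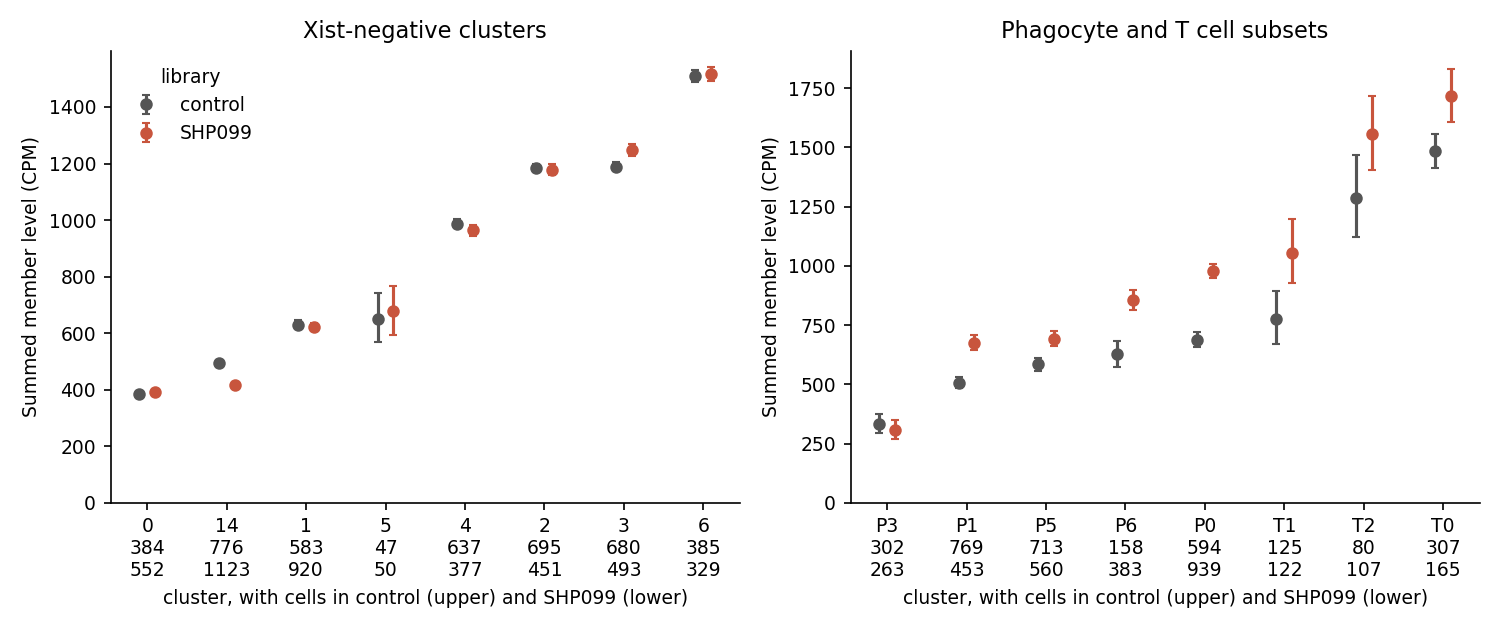
Summed member level (CPM, with 95% Poisson intervals) in each Xist-negative cluster (left) and in phagocyte and T cell sub-clusters (right), with cell numbers below. Cluster 14 stands at 493 and 417 CPM in control and SHP099, cluster 6 at 1509 and 1517 CPM, and P0 at 688 and 979 CPM.

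Between clusters the members were not equally variable. From cluster 0 to cluster 6 Rrm2 differed 12.7-fold (10.5 and 133 CPM), Cdc6, the licensing factor, 11.8-fold (1.23 and 14.6 CPM) and Clspn 11.0-fold (4.93 and 54.0 CPM). Cdc45 differed 1.21-fold (13.6 and 16.5 CPM), E2f1 1.86-fold and Mcm6 1.87-fold. With the small cluster 5 set aside, cluster 6 was highest for 27 of the 29 members, the exceptions being Cdc45, highest in cluster 2, and Slbp, highest in cluster 3. These are levels within the cells of 1 class, and the clusters also differ in depth, from a median of 15530 UMIs in cluster 1 to 32125 in cluster 6.

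Thinned to 2000 UMIs, Xist-negative cells with 3 or more members were 980 of 4107 in control, 23.9% (22.6 to 25.2), and 751 of 4265 in SHP099, 17.6% (16.5 to 18.8). The ratio of shares was 0.74 to 0.79 over 6 draws, and without thinning the shares were 89.2% and 85.3%, at median depths of 24301 and 20152 UMIs. Other lists had the same direction. The mitosis genes had a median of -0.14 and the 42 measured other replication genes -0.20, with 0 of each at least 1.5-fold lower. Tk1, thymidine kinase, was the lowest of the latter at 62.7 and 41.9 CPM, -0.58 (-0.64 to -0.52), and Topbp1 followed at 46.9 and 35.7 CPM. The highest were Orc3, at 10.0 and 10.8 CPM, and Pold4, at 38.5 and 41.1 CPM.

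The D cyclins of Xist-negative cells differed in opposite directions, with Ccnd1 at 216 and 177 CPM and Ccnd2 at 109 and 129 CPM. The arrest list had a median of 0.23, with Btg2, an antiproliferative gene, at 78.2 and 117 CPM and Cdkn1b, the CDK inhibitor p27, at 23.9 and 28.2 CPM, but Cdkn1a, the CDK inhibitor p21, was at 82.5 and 74.2 CPM. The share of mitochondrial UMIs was 3.09% and 3.60%, and haemoglobin RNA 30.8 and 131 CPM. In cluster 5, of 47 and 50 cells, haemoglobin RNA was at 602 and 18240 CPM, and without that cluster the log2 ratio of the members' sum was the same, -0.19 (-0.21 to -0.18). With cells of at most 10% mitochondrial UMIs the sum gave -0.19 and the median -0.22.

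T cells had a higher summed member level in SHP099, but few single members differed beyond counting error. The summed level was 1326 and 1508 CPM, a log2 ratio of 0.19 (0.09 to 0.28). Of 28 measured members 2 were at least 1.5-fold higher, Mcm4 and Mcm7, and 0 lower, where 11.1% of all 6947 measured genes were as much higher and 6.94% lower. The count of higher members was thus under the share of all genes, and over the alternatives it ran from 0 to 11. The median was 0.20 over the members and 0.07 over all genes. With 2051 and 1605 member UMIs, the interval of 26 of the 28 members held 0, so most single-gene differences were not detectable at this depth. Mcm4 was at 31.7 and 48.9 CPM, 0.62 (0.03 to 1.22), and Rrm2 at 64.7 and 87.4 CPM, 0.43 (0.01 to 0.86), the 2 whose interval lay above 0. The 5 members with a log2 ratio below 0 were Ung, Tyms, Cdt1, Rpa2 and Cdc6, with Tyms at 51.7 and 42.3 CPM and Cdt1 at 28.5 and 23.5 CPM.

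Among T cell subsets, Cd8a- and Gzmf-rich cells (T0) were at 1484 and 1717 CPM, a log2 ratio of 0.21 (0.09 to 0.33). Foxp3- and Il10-rich cells (T2) were at 1286 and 1556 CPM, 0.28 (0.03 to 0.52), and Tcf7-rich cells (T1), the lowest, at 776 and 1056 CPM, 0.44 (0.17 to 0.72). In thinned T cells the share with 3 or more members was 28.5% to 32.4% in control and 36.6% to 40.1% in SHP099 over 6 draws, a ratio of 1.15 to 1.41. In the draw with the highest ratio the counting intervals overlapped, at 23.7% to 33.7% in control and 33.3% to 47.2% in SHP099. The interval of that ratio was 1.03 to 1.92. The direction depended on thinning, which left out 190 of 520 and 196 of 398 cells: without it the shares were 33.1% and 31.7%, a ratio of 0.957, at median depths of 2396 and 2036 UMIs, and at 5000 UMIs the ratio was 1.02. The 42 measured other replication genes had a median of 0.19. Of these, 6 were at least 1.5-fold higher, 3 of them, with Timeless and Pold1 among them, measured only through SHP099. Of the 36 that reached 10 CPM in both libraries, 3 were higher. Among all measured genes in T cells 11.1% were as much higher, so the count is not read as particular to these genes. Timeless, the fork protection partner of Tipin, at 5.17 and 12.2 CPM, and Pold1, the catalytic subunit of polymerase delta, at 9.05 and 18.8 CPM, were the highest, and Orc4, at 35.6 and 24.4 CPM, and Pole3, at 53.7 and 47.0 CPM, the lowest. The intervals of all 4 held 0.

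NK cells had the largest higher ratio among the classes, on few cells. The summed level was 873 CPM on 98 control cells with 316 member UMIs and 1473 CPM on 54 SHP099 cells with 306, a log2 ratio of 0.75 (0.52 to 0.99). The nucleotide group, Ung included, was at 63.6 and 221 CPM. Within it Tyms had 5 and 12 UMIs, Rrm1 2 and 13, and Rrm2 14 and 19, which are small counts. Slbp, at 158 and 270 CPM on 57 and 56 UMIs, was the most counted member. The mitosis genes of the same cells were level, at 768 and 794 CPM, 0.05 (-0.24 to 0.33). In SHP099 the 3 NK cells with the most member UMIs held 33.7% of them, and in control 23.4%.

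In dendritic cells the summed level was 571 and 714 CPM, 0.32 (0.07 to 0.59), and there Hmga2 and Igf2bp2 stood at 5.46% and 28.4% of their Xist-negative level. Fibroblasts were at 377 and 328 CPM, -0.20 (-0.51 to 0.10), an interval that holds 0. Endothelial cells were at 953 and 359 CPM, -1.41 (-1.70 to -1.12), on 30 and 46 cells. In each library 3 endothelial cells held 41.2% and 40.6% of the member UMIs, so the level rests on few cells. Single members were not compared between the libraries in dendritic cells, fibroblasts and endothelial cells, and those named for NK cells rest on few UMIs.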

How the data were processed

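The values are whole-number UMI counts per gene and cell, deposited by the authors as 1 matrix per library. Per the submitters' processing notes they come from Cell Ranger on mm10 (GRCm38), and per the file headers the matrix writer was version 3.1.0. The sources used here do not give the annotation and settings of that step. Cells with under 200 genes (99 control, 103 SHP099) or over 20% mitochondrial UMIs (194, 260) were left out, then Scrublet calls (264, 3.32%, and 198, 2.51%). The libraries held 126218180 and 112901642 UMIs over 8245 and 8263 barcodes.

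Counts were scaled to the same total per cell and logged for clustering (2000 variable genes without the members and the other cell cycle lists, 30 components, 15 neighbours, Leiden resolution 1.0), in Python 3.11.15 with scanpy 1.11.5 and leidenalg 0.10.2. Classes came from marker lists. Sub-clusters used resolution 0.5 and left out genes whose correlation with the cycle score was 0.15 or more, a choice made after seeing the data. Levels are UMIs of a gene summed over a class, per 1e6 UMIs. Ratios add 0.5 CPM, are given for genes that reach 10 CPM in the control or the SHP099 library, and count as different from 1.5-fold. Intervals are 95%, exact Poisson for levels and exact binomial (Clopper-Pearson) for shares, and UMIs of 1 cell are not independent. The scripts were tested on simulated data. All 29 members may be named, with the 2 highest and 2 lowest other replication genes per class, Tk1, Pclaf and genes of the regulator lists. The members and lists were chosen with earlier results of these data known. The alternatives covered scaling, weighting, depth, filters, class rules and each doubtful cluster.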

Additional observations from a re-analysis of the deposited data

Results flagged for a closer look

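The summed level of the 29 members differed between the libraries in opposite directions in different cell classes. The log2 ratio of SHP099 over control was 0.43 in phagocytes (0.39 to 0.47) and -0.19 in Xist-negative cells (-0.21 to -0.18). It was 0.75 in NK cells, on 98 and 54 cells, and -1.41 in endothelial cells, on 30 and 46 cells. With clusters weighted alike the ratio was 0.19 in phagocytes and -0.0032 in Xist-negative cells, so the opposite direction in the latter is not seen at fixed cluster weights. The Xist-negative clusters themselves differ in the level of members and mitosis genes, so fixed weights may take out part of the difference. Each class has 1 library per treatment, so the difference between classes was not tested.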

How the results depend on the processing

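The T cell share of cells with 3 or more members reversed without thinning, to a ratio of 0.957 from 1.41. None of the other alternatives run reversed a direction. In Xist-negative cells the log2 ratio of the sum, -0.19, was -0.22 with the median ratio of all genes set to 1, -0.25 with each cell counted alike, -0.0032 with clusters weighted alike, -0.23 in thinned cells, -0.052 when each cell was assigned from its own marker counts and -0.12 without cluster 14. The median was -0.016 with clusters alike and -0.048 with own marker counts, 1 member was at least 1.5-fold lower in thinned cells, and the ratio of shares was 0.844 at 5 or more members, 0.826 at 5000 UMIs, 0.957 without thinning and 0.874 with own marker counts. In phagocytes the sum, 0.43, was 0.38 with the median ratio set to 1, 0.19 with clusters alike, 0.48 at resolution 0.5, without P4 and P7 and without cluster 12, and 0.36 with subsets alike. The median was 0.20 and 1 member was higher with clusters alike, and the ratio of shares was 1.29 at 2 members, 2.65 at 5, 1.32 at 5000 UMIs, 1.27 without thinning and 1.62 in another draw. In T cells the count of higher members, 2, was 0 with the median ratio set to 1, 4 with each cell alike, 11 in thinned cells, and 1 with at least 500 genes, with doublet calls kept or without T3. Lower members were 1 with each cell alike, clusters alike or own marker counts and 2 in thinned cells, where the sum was 0.34, and at 5000 UMIs the ratio of shares was 1.02. The causes were not tested. Leaving out clusters or subsets, weighting subsets alike, no thinning and the other draws were chosen after seeing the data. No paired analysis was possible because the labels carry no replicate numbers and each group has 1 library. With no replicates, spread between tumours is not in any interval.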
